A study of Chromochloris zofingiensis with 6 samples.

Results

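The 118 genes described here are those that the study's gene table groups under ribosome biogenesis and translation, each identifier taken once. All 118 were listed in each of the 6 libraries and all passed the filter on low values, out of 15037 genes listed in at least 1 library and 13886 tested. By their annotation 117 of them encode ribosomal proteins and 1 (Cz16g06020) encodes a methyltransferase of ribosomal protein L11. From the annotation text 54 genes were assigned to the cytosolic ribosome (23 of the small and 31 of the large subunit), 18 to that of the plastid and 8 to that of the mitochondrion. A further 24 carry a bacterial-type name (30S or 50S) with no organelle, and 13 give no compartment. Genes annotated S26, L13a, S3a, SAe or acidic P1 with no 40S or 60S were counted as cytosolic, because these names belong to the eukaryotic ribosome.

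The organism was Chromochloris zofingiensis, a single-celled green alga, strain ATCC30412, grown in column photobioreactors with continuous light and air enriched in CO2. Cells in exponential growth were spun down, washed and put into Kuhl medium with 200 mM NaCl, and poly-A RNA was sequenced for 3 replicate cultures at 0 h and for 3 at 6 h. The labels do not say whether the same cultures were sampled at both times. No library of cells kept for 6 h without the added salt was analysed here, so salt, time and the change of medium cannot be told apart. RNA came from whole cultures, in which fewer cells of one state and less RNA per cell cannot be told apart.

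A ribosome is built of a small and a large subunit, each a scaffold of ribosomal RNA that is held and tuned by many small proteins. A green alga runs separate ribosomes in the cytosol, in the plastid and in the mitochondrion. The last 2 kinds descend from bacteria, and most of their proteins are encoded in the nucleus and imported. In yeast and plants the genes of the cytosolic ribosome are among the most strongly transcribed of all and are known to respond together to growth conditions.

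Values are FPKM, the fragments assigned to a gene per kilobase of its transcript and scaled to the size of the library, so genes can be compared within a library, and a gain in one group of genes cannot be told apart from a loss in the rest. The libraries listed 14233 to 14697 genes and hold no read counts, and the read number that the study lists for each library was not used here. Summed over all genes, the 0 h libraries held between 924660 and 977297 FPKM and the 6 h libraries between 936327 and 1135980. The 6 h cultures differed from each other far more than the 0 h cultures did. The SD of a gene's log2 level over the 3 cultures had a median, across all genes tested, of 0.103 in the 0 h group and 0.343 in the 6 h group. For the 54 cytosolic genes these medians were 0.147 and 0.657. Because of this, calls and counts that were lost on leaving out a library are named as such below.

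After scaling, most ribosomal protein genes had a higher level at 6 h than at 0 h, and most of these differences did not pass the test. Fold changes were taken from a limma fit on log2 of scaled FPKM (each library divided by its median ratio to the gene means), 6 h against 0 h, with Benjamini-Hochberg adjustment over all genes tested. A gene is said to rise or fall where its adjusted p was under 0.05, and is called higher or lower where its log2 fold change was also at least 1 in size. Of the 117 genes, 21 were called higher, against 20.0% of all genes tested, and 2 were called lower, against 26.6%. On the adjusted p alone 37 rose and 8 fell (background 33.6% and 33.8%), and 72 did not pass. The fitted change had a median of 0.68 on the log2 scale, beside -0.04 over all genes tested, and its sign was positive in 93 genes and negative in 24. Counted in either direction, 23 of the 117 were called, against 46.6% of all genes tested. In this fit the share of calls in the higher direction is close to the background, and that in the lower direction is below it. The first comparison did not hold under all of the alternatives that follow.

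**Figure D1:**
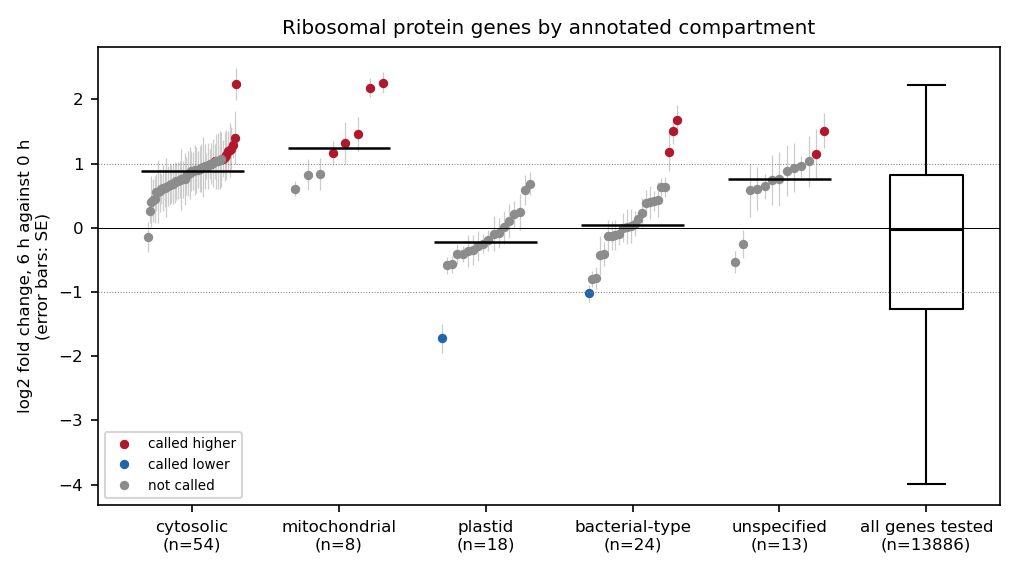
Fitted log2 fold change of each ribosomal protein gene at 6 h against 0 h (vertical axis) with its SE, grouped by annotated compartment, with black bars at the group medians and a box (quartiles, whiskers at percentiles 5 and 95) for all genes tested. The cytosolic genes sit around 0.89 and the mitochondrial genes around 1.24, while the plastid genes sit around -0.22 and the bacterial-type genes around 0.05.

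The count of calls turned on single cultures. Without 6 h replicate 3 the genes called higher numbered 59, and without 6 h replicate 1 or 6 h replicate 2 they numbered 11 each. Leaving out 0 h replicate 1 or 0 h replicate 2 gave 12 and 13. Over all genes tested, those called higher numbered 3242, 2580, 2544, 2615 and 2635 in the same order (main 2772), so they moved less in proportion. The scaling of the libraries mattered too: unscaled FPKM gave 8 genes called higher and 4 lower, TPM gave 7 and 6, and upper-quartile factors gave 9 and 4. These scalings moved the median of all genes from -0.04 to -0.34, -0.47 and -0.34. With them 1925, 1624 and 1925 of the 13886 genes tested were called higher (main 2772), and 4466, 4738 and 4421 lower (main 3692). Of the 21 genes called higher, 4 kept the call under every alternative tried, namely cytosolic S26 (Cz11g17050), mitochondrial L21 (Cz06g02080) and L11 (Cz06g36110), and bacterial-type L24 (Cz13g16170). Of the 2 called lower, the chloroplast-specific protein (Cz14g01070) kept it.

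The ribosomal protein genes separated the 6 h cultures in one common order. In 111 of the 117 genes (94.9%) the level was highest in 6 h replicate 1, intermediate in replicate 2 and lowest in replicate 3 among the 6 h cultures, an order that 36.6% of all genes tested showed. All 54 cytosolic genes, all 8 mitochondrial genes and all 13 genes with no compartment had it, as did 15 of 18 plastid and 21 of 24 bacterial-type genes. Among other genes of protein synthesis and turnover, 25 of 32 proteasome subunits (78.1%) and 20 of 33 initiation factors (60.6%) had it. So did 7 of 14 elongation factors and 8 of 18 aminoacyl-tRNA synthetases. The replicate number has no meaning as a sequence, and the labels name no difference between these cultures.

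The spread was wide for the cytosolic ribosome. The FPKM ratio of 6 h replicate 1 to 6 h replicate 3 had a median of 2.41 over the cytosolic genes (1.38 to 3.87), beside 1.04 over all genes tested. Relative to the 0 h mean, the cytosolic median on the log2 scale was 1.54 in 6 h replicate 1, 0.93 in replicate 2 and 0.16 in replicate 3. The same medians over all genes tested were -0.03, -0.03 and 0.01, which the scaling keeps near each other by its construction. In deposited FPKM, 6 h replicate 1 exceeded all 0 h cultures for 53 of the 54 genes, replicate 2 for 48 and replicate 3 for 8. Of all 13886 genes tested, 5353, 5355 and 4871 did so in these cultures. Among the 0 h cultures, replicate 3 had the highest cytosolic median, at 0.16 above the 0 h mean, which is the level of 6 h replicate 3.

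The share of each library taken by these genes showed the same order of the 6 h cultures. Ribosomal protein genes held 5.34%, 5.45% and 6.16% of the summed FPKM in the 0 h cultures and 9.87%, 7.06% and 4.86% in the 6 h cultures. The means were 5.65% ± 0.445 (SD, n = 3) for the 0 h cultures and 7.26% ± 2.51 (SD, n = 3) for the 6 h cultures, and the groups overlapped. The cytosolic genes made up most of it, from 3.84% to 4.50% at 0 h and from 3.73% to 7.72% at 6 h. The 18 plastid genes held 0.332%, 0.334% and 0.354% at 0 h and 0.249%, 0.215% and 0.177% at 6 h, and there the groups did not overlap. The 8 mitochondrial genes held 0.0308%, 0.0291% and 0.0328% at 0 h and 0.0632%, 0.0593% and 0.0442% at 6 h, again without overlap. No test was run on these shares. On that scale (TPM) the median log2 fold change over all genes tested was -0.47. It was -0.66 for the plastid and 0.80 for the mitochondrial genes.

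**Figure D2:**
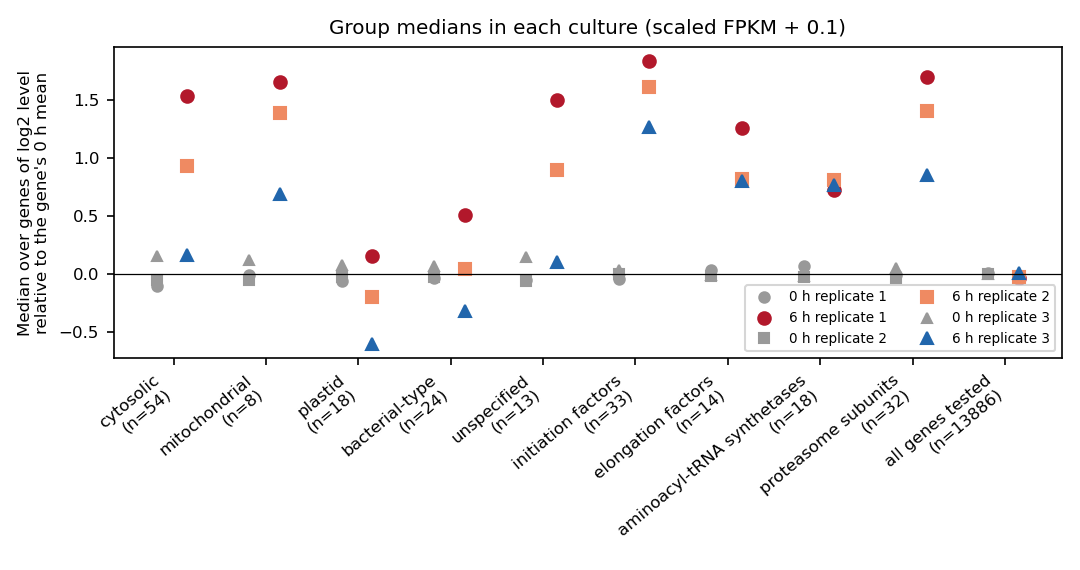
Median over genes of the log2 level relative to each gene's 0 h mean (vertical axis) in each of the 3 cultures at 0 h (grey) and 6 h (coloured), for the ribosomal groups, for other groups of protein synthesis and turnover, and for all genes tested. The 5 ribosomal groups fan out from 6 h replicate 1 to 6 h replicate 3. So do the proteasome subunits, at 1.70, 1.41 and 0.85, and the initiation factors, at 1.84, 1.61 and 1.27. All genes tested stay between -0.03 and 0.01.

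The genes of the cytosolic ribosome stood near the top of the transcriptome at both times. Of the 54, 49 were among the 500 genes with the highest mean FPKM at 0 h and 51 at 6 h. Their mean FPKM at 0 h lay between 222 and 1383 for 51 genes, and between 19.9 and 32.9 for the other 3. The fitted change was above 0 for 53 of the 54 genes, beside 6809 of the 13886 genes tested. On the adjusted p 18 rose (33.3%, beside 33.6% of all genes tested) and none fell (beside 33.8%). Called higher were 11 (5 of the small and 6 of the large subunit), a share of 20.4% beside 20.0%. The shares rising and called higher are thus near the background. The median of the 54 was 0.89, with 0.76 for the small and 0.90 for the large subunit. The deposited FPKM at 6 h lay wholly above those at 0 h for 8 of the 54 genes, beside 27.2% of all genes tested.

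The largest cytosolic change was in a gene of low level. One of 3 genes annotated as S26 (Cz11g17050), a protein at the channel where mRNA leaves the small subunit, had 33.97, 31.7 and 32.99 FPKM at 0 h and 176, 125 and 90.2 FPKM at 6 h. Every 6 h culture lay above every 0 h culture, and the gene was called higher at log2 2.24 ± 0.25 (SE, limma adjusted p = 0.000419). Another S26 gene of low level (Cz08g12060) had 27.9, 30.9 and 34.98 FPKM at 0 h and 70.8, 68.8 and 47.5 FPKM at 6 h. It was called higher as well, at log2 1.29 ± 0.19 (SE, limma adjusted p = 0.00144), with no overlap between the times. The call was lost with each other scaling and with the size limit put inside the test. The S26 gene that held nearly all S26 transcript (Cz08g12070) had 1259.88, 1289.61 and 1598 FPKM at 0 h and 2612, 1768 and 1219 FPKM at 6 h. The groups overlapped, since 6 h replicate 3 lay below all 0 h cultures, and the gene did not pass the test at log2 0.68 ± 0.31 (SE, limma adjusted p = 0.0927). In yeast, S26 contacts the mRNA just upstream of the start codon.

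Among the abundant cytosolic genes the calls came with large differences between cultures, shown here for L14 and L10, which had the largest fold changes of them, and for L11. L14 (Cz03g21090), a protein of the large subunit, had 484, 545 and 738 FPKM at 0 h and 2073, 1282 and 713 FPKM at 6 h. The third 6 h culture lay below the highest 0 h culture, so the groups overlapped, and the call rested on log2 1.403 ± 0.41 (SE, limma adjusted p = 0.0228). L10 (Cz05g34280), which in yeast joins the large subunit late and is needed for it to enter translation, had 691, 694 and 769 FPKM at 0 h and 2103, 1424 and 846 FPKM at 6 h. Here all 6 h cultures lay above all 0 h cultures, and the log2 fold change was 1.24 ± 0.34 (SE, limma adjusted p = 0.0181). L11 (Cz06g11020), which binds the 5S ribosomal RNA together with L5, had 574, 606 and 718 FPKM at 0 h and 1815, 1152 and 632 FPKM at 6 h. Its 6 h replicate 3 lay within the range of the 0 h cultures, and it was called higher at log2 1.11 ± 0.39 (SE, limma adjusted p = 0.0426). L5 itself (Cz10g29210), given for its partnership and chosen after its values were seen, did not pass at log2 0.68 ± 0.30 (SE, limma adjusted p = 0.0862).

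The same shape held for the other called cytosolic genes. S18 (Cz03g21050) had 716, 839 and 1021 FPKM at 0 h and 2729.93, 1648 and 884 FPKM at 6 h. It was called higher at log2 1.21 ± 0.42 (SE, limma adjusted p = 0.0429), with 6 h replicate 3 inside the 0 h range. S13-2 (Cz07g16040) had 449, 437 and 504 FPKM at 0 h and 1305, 849 and 573 FPKM at 6 h, without overlap, and a log2 fold change of 1.203 ± 0.31 (SE, limma adjusted p = 0.0140). L6 (Cz11g06080) was called at log2 1.14 ± 0.39 (SE, limma adjusted p = 0.0384) and had 827 FPKM in 6 h replicate 3, inside the 0 h range of 719 to 917. L24-2 (Cz02g32210), of the large subunit, was called at log2 1.08 ± 0.29 (SE, limma adjusted p = 0.0167), and its 6 h cultures, at 1502, 1144 and 712 FPKM, lay above the 0 h maximum of 681.

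The remaining calls were at the edge of the size limit. P3-like (Cz07g28160), of the acidic stalk proteins that draw elongation factors to the ribosome and known from plants, had 193, 223 and 250.03 FPKM at 0 h and 524, 349.77 and 266 FPKM at 6 h. All 6 h cultures were higher than all 0 h cultures, and the gene was called at log2 1.04 ± 0.27 (SE, limma adjusted p = 0.0145). S24-1 (Cz13g15140) was called at log2 1.001 ± 0.31 (SE, limma adjusted p = 0.0297), and its 6 h replicate 3 (722 FPKM) was level with 0 h replicate 3 (722 FPKM). The other stalk genes did not pass, with a log2 fold change of 0.41 ± 0.40 (SE, limma adjusted p = 0.388) for P2-4 (Cz11g03220), and, chosen after their values were seen, 1.05 ± 0.44 (SE, limma adjusted p = 0.0729) for P1 (Cz04g14050) and 0.43 ± 0.33 (SE, limma adjusted p = 0.285) for P0 (Cz05g18190). The direction of P2-4 turned with TPM scaling.

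The smallest cytosolic changes were in S3-3, L7-3 and P2-4. S3-3 (Cz02g33160), a gene of low level beside the main S3 gene, had 19.01, 20.1 and 20.6 FPKM at 0 h and 19.6, 14.4 and 10.8 FPKM at 6 h. It is the single cytosolic gene with a fitted change below 0, and it did not pass at log2 -0.15 ± 0.24 (SE, limma adjusted p = 0.602). One gene annotated L7-3 (Cz10g26020) had 780.2, 826 and 881 FPKM at 0 h and 971, 743 and 704 FPKM at 6 h and did not pass at log2 0.26 ± 0.17 (SE, limma adjusted p = 0.228). Its direction turned with each of the other 3 scalings.

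Counts of calls in the cytosolic group changed with the culture left out and with the scaling. They were 40 of 54 without 6 h replicate 3, 3 without 6 h replicate 1 and 4 without 6 h replicate 2. Without 0 h replicate 1, 2 or 3 they were 3, 4 and 9. The calls of S18, L6, L11 and S24-1 were lost on leaving out any single library but 6 h replicate 3. Those of L10 and L24-2 were lost without 0 h replicate 1 or 2 or 6 h replicate 1 or 2. The call of L14 was lost without 0 h replicate 1 or 2 or 6 h replicate 2, that of P3-like without 0 h replicate 1 or 6 h replicate 1, and that of S13-2 without 6 h replicate 1. The median stayed above 0 in each of these, from 0.52 without 6 h replicate 1 to 1.21 without 6 h replicate 3. With the other scalings 1 or 2 genes were called and the median was 0.45 to 0.58.

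**Figure D3:**
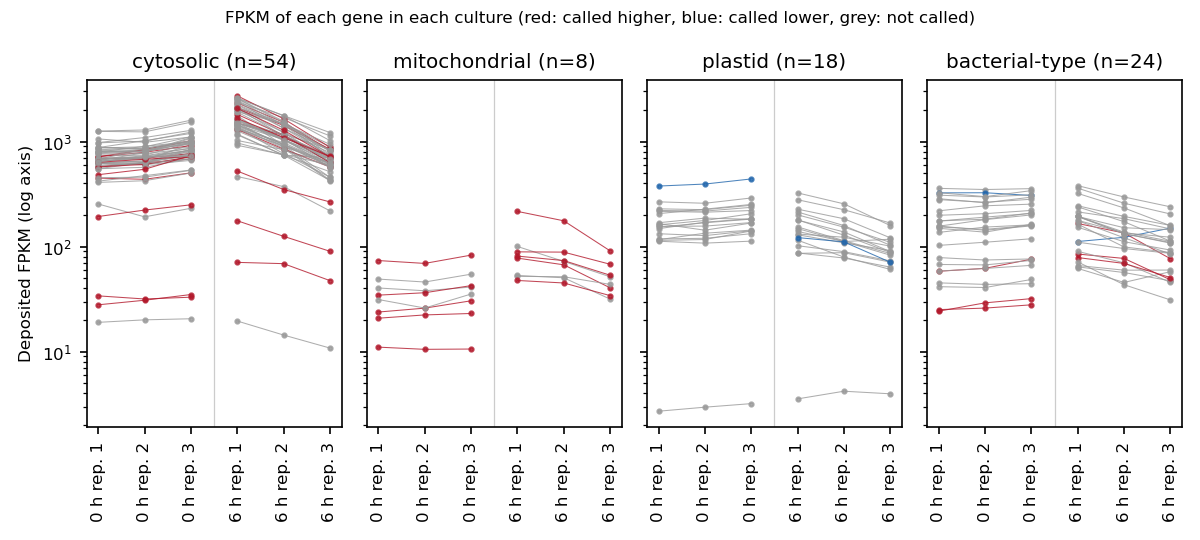
Deposited FPKM of each gene (vertical log axis) in the 3 cultures at 0 h and the 3 at 6 h, in panels for the cytosolic, mitochondrial, plastid and bacterial-type genes, with lines joining the cultures of 1 time for the same gene. Cytosolic genes called higher (red) and not called (grey) show the same order of the 6 h cultures, and the chloroplast-specific gene (blue, plastid panel) drops from 377 to 441 FPKM at 0 h to 71.1 to 122 FPKM at 6 h.

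All 8 genes annotated to the mitochondrial ribosome rose on the adjusted p, beside 33.6% of all genes tested, and 5 were called higher (62.5%, beside 20.0%). Their level was low beside the cytosolic genes, with a median of 34.4 FPKM at 0 h and 65.6 FPKM at 6 h over the genes. Their median change was 1.24 on the log2 scale, and taken culture by culture at 6 h it came to 1.66, 1.39 and 0.69, all above 0. For 6 of the 8 genes the deposited 6 h values all lay above the 0 h values, beside 27.2% of all genes tested. After scaling this held for all 8, beside 5110 of the 13886 genes tested.

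L21 (Cz06g02080), of the large subunit, had 11.04, 10.5 and 10.6 FPKM at 0 h and 47.6, 45.1 and 34.2 FPKM at 6 h. Every 6 h culture was more than 3 times the highest 0 h culture, and the log2 fold change was 2.26 ± 0.16 (SE, limma adjusted p = 7.16e-05). L11 (Cz06g36110, annotated 39S), which in bacteria lies at the base of the stalk where elongation factors bind, had 20.8, 22.4 and 23.1 FPKM at 0 h and 89.2, 88.6 and 67.95 FPKM at 6 h. It was called higher at log2 2.18 ± 0.14 (SE, limma adjusted p = 5.02e-05), also without overlap. For both genes 6 h replicate 3 was again the lowest 6 h culture.

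S12 (Cz07g33050), in bacteria a protein of the decoding centre, had 23.8, 25.96 and 30.5 FPKM at 0 h and 77.7, 67.1 and 40.5 FPKM at 6 h. The groups did not overlap and it was called at log2 1.47 ± 0.26 (SE, limma adjusted p = 0.00325). Of the alternatives tried, only putting the size limit inside the test ended this call. L23 (Cz16g16210), which in bacteria sits at the exit of the peptide tunnel, had 73.7, 69.2 and 82.99 FPKM at 0 h and 216, 176 and 91.2 FPKM at 6 h and was called at log2 1.32 ± 0.33 (SE, limma adjusted p = 0.0121). It was the most abundant of the 8, and 6 h replicate 3 lay only just above the 0 h cultures. The call was lost without 6 h replicate 2, with TPM and with the size limit inside the test. L13 (Cz04g19090), named because it is the only other gene of the 8 that was called and chosen after its values were seen, was called at log2 1.17 ± 0.19 (SE, limma adjusted p = 0.00207). The call of L13 was lost with each other scaling and with the size limit inside the test. S11 (Cz11g15210) rose by 0.84 on the log2 scale (SE 0.25), L19 (Cz09g01050) by 0.83 (SE 0.24) and S9 (Cz10g10030) by 0.61 (SE 0.12), all under the size limit. For S11 and L19 the 6 h replicate 3 value lay inside the 0 h range. With TPM 3 mitochondrial genes were called, and without 6 h replicate 3 there were 7.

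The plastid ribosome genes showed no call in the higher direction. Their median was -0.22, with 12 of 18 genes below 0, and it was -0.66 with TPM (beside -0.47 over all genes) and -0.05 without 6 h replicate 3. On the adjusted p 4 fell (22.2%, beside 33.8% of all genes tested), 1 rose and 13 did not pass, and 1 was called lower (5.56%, beside 26.6%), so falls were no more frequent than in the background. The median in the single 6 h cultures was 0.16, -0.20 and -0.60. In deposited FPKM 10 of the 18 genes had all 6 h values below all 0 h values, beside 46.1% of all genes tested. After scaling 5 of the 18 did, beside 5139 of the 13886 genes tested.

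The chloroplast-specific ribosomal protein (Cz14g01070) had the highest level of the plastid genes at 0 h and the only call. It had 377, 394 and 441 FPKM at 0 h and 122, 111 and 71.1 FPKM at 6 h. No 6 h culture came near the 0 h cultures, and the log2 fold change was -1.72 ± 0.22 (SE, limma adjusted p = 0.000795). Proteins of this kind are parts of the plastid ribosome that bacteria lack. Under all alternatives tried it was called lower.

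The other plastid genes had fitted changes under the size limit. S21 (Cz05g29050), of the small subunit, had 206, 227 and 252 FPKM at 0 h and 139.66, 112 and 118 FPKM at 6 h and fell at log2 -0.59 ± 0.14 (SE, limma adjusted p = 0.00987). S5 (Cz12g28110), a small subunit protein that in bacteria bears on decoding accuracy, had 217, 213 and 221 FPKM at 0 h and 132, 123 and 101 FPKM at 6 h and fell at log2 -0.57 ± 0.13 (SE, limma adjusted p = 0.00927). In both the 6 h cultures all lay below the 0 h cultures. L3 (Cz04g11050), which in bacteria starts the assembly of the large subunit with few others, fell by 0.41 on the log2 scale (SE 0.12), with adjusted p = 0.0241 in limma. This fall did not pass on leaving out any single 0 h culture or 6 h replicate 2, or with replicate number as a block. L31 (Cz04g14290) did not pass at log2 0.59 ± 0.23 (SE, limma adjusted p = 0.0611), and its 6 h cultures spanned 110 to 201 FPKM against 118 to 133 FPKM at 0 h. S13 (Cz02g19040), the plastid gene with the second highest level at 0 h, did not pass at log2 0.11 ± 0.27 (SE, limma adjusted p = 0.741), and its sign turned with each other scaling.

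The 24 bacterial-type genes split in direction. On the adjusted p 6 rose, 3 fell and 15 did not pass, and 3 were called higher and 1 lower. These are 12.5% and 4.17% of the group, both under the 20.0% and 26.6% of all genes tested. Their median of 0.05 turned to -0.26 with deposited FPKM, -0.39 with TPM and -0.26 with upper-quartile scaling (beside -0.34, -0.47 and -0.34 over all genes), and to -0.17 without 6 h replicate 1. In the single 6 h cultures the median was 0.51, 0.04 and -0.32. The 3 genes called higher had low levels at 0 h. Among the 8 genes under 100 FPKM at 0 h, a limit chosen after the values were seen, 3 were called higher and the median was 0.63. Among the 16 above it none was called higher, 1 was called lower and the median was -0.05. The 0 h level also enters the fold change, so this split cannot show whether level and change are related.

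The largest rise was in one of the genes annotated 50S L24 (Cz13g16170), which had 25.1, 25.98 and 27.9 FPKM at 0 h and 84.98, 77.2 and 48.3 FPKM at 6 h. All 6 h cultures were above all 0 h cultures, at log2 1.68 ± 0.23 (SE, limma adjusted p = 0.00100). The other L24 gene (Cz13g14230) had 309, 297 and 311 FPKM at 0 h and 178, 135 and 123 FPKM at 6 h, and fell at log2 -0.78 ± 0.17 (SE, limma adjusted p = 0.00653), also without overlap. Bacterial L24 is one of the proteins that start the assembly of the large subunit, and these files do not tell which organelle either gene serves. Mean FPKM were 305.8 for the more abundant L24 gene and 26.3 for the other at 0 h, and 145 and 70.2 at 6 h.

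L7/L12 (Cz11g16290), in bacteria the flexible stalk of the large subunit, had 24.3, 29.1 and 31.98 FPKM at 0 h and 78.7, 69.2 and 50.8 FPKM at 6 h. It was called higher at log2 1.51 ± 0.20 (SE, limma adjusted p = 0.000911), with no overlap, and only putting the size limit inside the test ended the call. L16 (Cz04g37100) had 58.3, 62.1 and 75.98 FPKM at 0 h and 166, 135 and 76.7 FPKM at 6 h and was called at log2 1.19 ± 0.30 (SE, limma adjusted p = 0.0132). Its 6 h replicate 3 lay within 1 FPKM of 0 h replicate 3. The call was lost without 6 h replicate 1 or 6 h replicate 2, with each other scaling and with the limit inside the test.

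S1 (Cz02g16010), in bacteria the protein that holds mRNA on the small subunit, had 325, 326 and 307 FPKM at 0 h and 112, 123 and 149.97 FPKM at 6 h. The groups did not overlap and it was called lower at log2 -1.02 ± 0.13 (SE, limma adjusted p = 0.000761), at the edge of the size limit, so that leaving out 0 h replicate 1, 0 h replicate 2, 6 h replicate 1 or 6 h replicate 2, or putting the limit inside the test, ended the call. S1 is also the only ribosomal protein gene with its highest 6 h value in 6 h replicate 3. L6 (Cz10g03060) had 199, 206 and 221 FPKM at 0 h and 110.23, 95.8 and 86.3 FPKM at 6 h and fell at log2 -0.79 ± 0.13 (SE, limma adjusted p = 0.00206), under the size limit. S10 (Cz01g35250) had the highest level after L27 and did not pass at log2 -0.40 ± 0.18 (SE, limma adjusted p = 0.0930). That L27 gene (Cz08g09200) did not pass at log2 0.07 ± 0.19 (SE, limma adjusted p = 0.769), and its sign turned with each other scaling.

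The 13 genes without a named compartment fell into 8 with 635 to 993 FPKM at 0 h and 5 with 27.03 to 230 FPKM. The 8 had levels like those of the cytosolic genes and a median of 0.83, and all 8 were in the 500 genes with the highest mean FPKM at both times. The group as a whole had 2 genes called higher (15.4%, beside 20.0% of all genes tested), none lower (beside 26.6%) and a median of 0.76. Without 6 h replicate 3 there were 9 called higher, and without 0 h replicate 1, 0 h replicate 2, 6 h replicate 1 or 6 h replicate 2 there was 1. S6 (Cz06g36040), in animals, yeast and plants a target of the kinase cascade below TOR, had 898, 912 and 1004 FPKM at 0 h and 2757, 1799 and 958 FPKM at 6 h. It was called at log2 1.15 ± 0.39 (SE, limma adjusted p = 0.0381), with 6 h replicate 3 inside the 0 h range. The call was lost with each other scaling and on leaving out any single library but 6 h replicate 3. It was also lost with the size limit inside the test and with replicate number as a block. S7 (Cz03g33260), a gene of low level, had 28.4, 28.4 and 29.97 FPKM at 0 h and 88.6, 76.2 and 44.2 FPKM at 6 h. It was called at log2 1.51 ± 0.27 (SE, limma adjusted p = 0.00305) without overlap, and of the alternatives tried only putting the size limit inside the test ended the call.

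Others of this group did not pass or lay under the limit. S8 (Cz09g32130) had a log2 fold change of 1.04 ± 0.39 (SE, limma adjusted p = 0.0553), and S11 (Cz02g12020), with S6 the most abundant of this group at 0 h, had 0.89 ± 0.40 (SE, limma adjusted p = 0.0903). L29 (Cz03g38180) fell at log2 -0.53 ± 0.17 (SE, limma adjusted p = 0.0333), from 211 to 252 FPKM at 0 h to 108 to 156 FPKM at 6 h. This fall did not pass on leaving out any single 0 h culture or 6 h replicate 2. L10 (Cz03g23160) did not pass at log2 -0.25 ± 0.21 (SE, limma adjusted p = 0.333).

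The gene of the L11 methyltransferase (Cz16g06020) fell, as did 8 of the 117 ribosomal protein genes, while 37 of the 117 rose. In bacteria the methyltransferase adds methyl groups to ribosomal protein L11. The gene had 17.7, 15.5 and 16.7 FPKM at 0 h and 7.2, 7.48 and 7.73 FPKM at 6 h. The 6 h cultures were close together and all below the 0 h cultures, and the gene fell at log2 -0.84 ± 0.13 (SE, limma adjusted p = 0.00179), under the size limit, which it passed with each of the other scalings. It showed no drop from 6 h replicate 1 to 6 h replicate 3.

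Genes that share a subunit number in different ribosomes had different values. Such a number does not always mark the same protein, because the eukaryotic and bacterial numbering differ for L11, L21 and L24, while L3 is one family throughout. For L11 the log2 fold change was 2.18 for the mitochondrial gene, 1.11 for the cytosolic gene and -0.43 for the bacterial-type gene (Cz11g03060, limma adjusted p = 0.248). For L21 it was 2.26 for the mitochondrial gene, 0.84 for the cytosolic gene (Cz04g01160, limma adjusted p = 0.0733), and 0.01 and -0.25 for the plastid pair, and of these only the mitochondrial gene passed. For L3 it was 0.55 for the cytosolic gene (Cz12g24070, not passing), 0.63 for a bacterial-type gene annotated L3-2 (Cz04g03220, rising), and -0.13 and -0.41 for the neighbouring 50S and plastid genes. The genes singled out here by a shared number were chosen after their values were seen, and the differences between them were not tested.

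**Figure D4:**
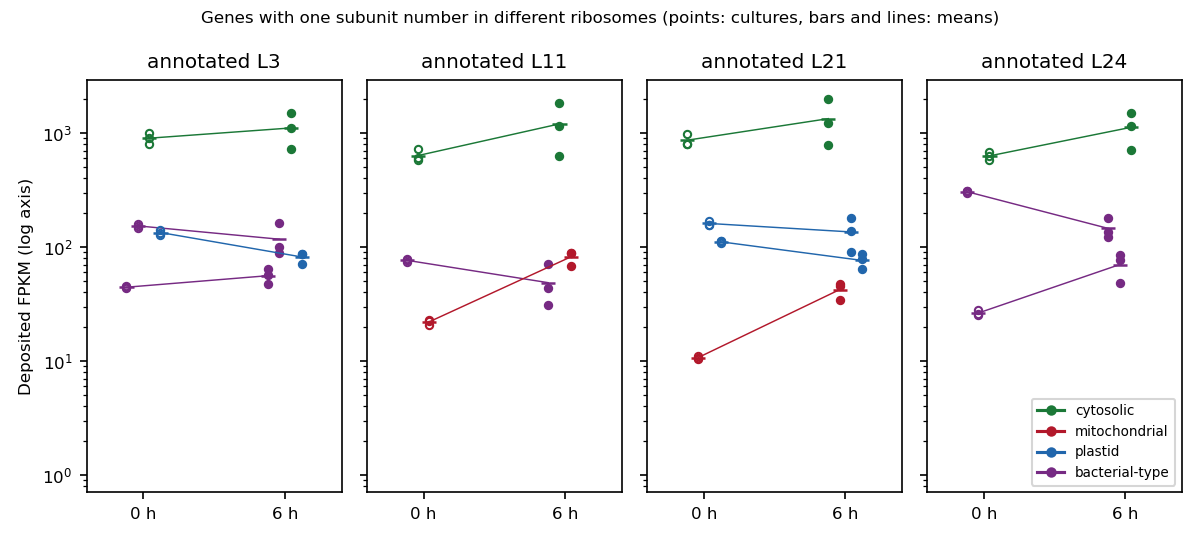
Deposited FPKM (vertical log axis) of genes annotated L3, L11, L21 and L24 in each culture at 0 h (open) and 6 h (filled), coloured by ribosome, with bars and lines at the means. Mitochondrial L21 and L11 climb from 10.7 to 42.3 and from 22.1 to 81.9 FPKM, while 50S L11 and the more abundant 50S L24 have lower means at 6 h.

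In 9 pairs of genes (18 genes) the identifiers are neighbours and the subunit name is the same. Such pairs can be tandem copies or pieces of 1 gene, and their reads may have been divided between them by the counting, so their single values are uncertain. No 2 members had identical FPKM in all 6 libraries. In 6 pairs, L1, L12, L15, L21, L3 and L7, the 2 genes were within a factor of 2.44 of each other in every library. In the other 3 pairs 1 gene carried almost all of the FPKM.

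Within those 3 pairs the ratios at 6 h lay apart from those at 0 h. For the plastid S5 pair the ratio of the abundant gene (Cz12g28110) to the other (Cz12g28120) was 79.9, 71.9 and 68.9 in the 0 h cultures and 37.1, 29.2 and 25.4 in the 6 h cultures. The minor gene, at 2.71 to 3.2 FPKM at 0 h and 3.55 to 4.2 FPKM at 6 h, rose at log2 0.69 ± 0.18 (SE, limma adjusted p = 0.0140) while the abundant gene fell. For cytosolic S3 the ratio of Cz02g33150 to Cz02g33160 was 32.9, 32.6 and 37.7 in the 0 h cultures and 69.3, 62.1 and 58.9 in the 6 h cultures. For S26 the ratio of Cz08g12070 to Cz08g12060 was 45.1, 41.8 and 45.7 in the 0 h cultures and 36.9, 25.7 and 25.7 in the 6 h cultures. In each of the 3 the ratios at 6 h did not overlap those at 0 h, though no test was run on them and neither S3 gene passed. Those of the more even L15 and L12 pairs did not overlap either. For L15 they were 1.27 to 1.54 at 0 h and 1.70 to 1.83 at 6 h. For L12 they were 1.439 to 1.681 at 0 h and 1.117 to 1.438 at 6 h. The L1, L21, L3 and L7 ratios overlapped. How often the ratios of other gene pairs lie apart was not counted. Of single genes tested, 27.2% had all deposited 6 h values above all 0 h values, and 46.1% had them all below.

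In the 6 balanced pairs the log2 fold changes of the 2 genes differed by at most 0.37. L12-3 (Cz05g19100) had a log2 fold change of 1.01 ± 0.37 (SE, limma adjusted p = 0.0501) and L12 (Cz05g19110) 0.72 ± 0.29 (SE, limma adjusted p = 0.0660). L15-1-like (Cz06g21040) had 0.95 ± 0.46 (SE, limma adjusted p = 0.112), and its neighbour L15 (Cz06g21030) 0.59 ± 0.42 (SE, limma adjusted p = 0.255). The other L7-3 gene (Cz10g26010) had 0.62 ± 0.30 (SE, limma adjusted p = 0.107). None of these passed the test, nor did the L1 pair, at 0.25 for Cz06g21190 and -0.10 for Cz06g21200, nor the L21 pair of the plastid (Cz10g19180 and Cz10g19190). Of the L3 pair, the plastid gene fell and the 50S gene (Cz04g11060) did not pass.

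**Figure D5:**
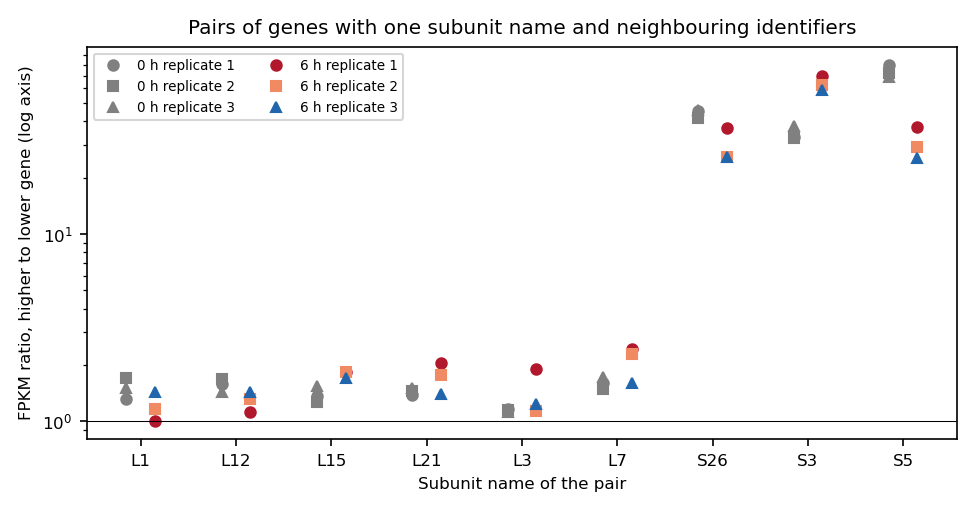
FPKM ratio of the higher to the lower gene (vertical log axis) in each culture for 9 pairs of neighbouring genes with the same subunit name. The S26, S3 and S5 pairs are uneven, from 25.4 to 79.9, and their 0 h (grey) and 6 h (coloured) ratios do not overlap. Nor do those of the more even L12 and L15 pairs.

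Other genes of protein synthesis and turnover in the same gene table were set beside the ribosomal proteins. Initiation factors had a median of 1.52, with 23 of 33 genes called higher and 1 lower. Proteasome subunits had a median of 1.33, with 24 of 32 called higher and none lower. Elongation factors had 6 of 14 called higher and 1 lower (median 0.88), and aminoacyl-tRNA synthetases, which charge tRNAs, 6 of 18 and 1 lower (median 0.81). The medians in the single 6 h cultures were 1.84, 1.61 and 1.27 for initiation factors and 1.70, 1.41 and 0.85 for proteasome subunits. They were 1.26, 0.82 and 0.80 for elongation factors and 0.72, 0.81 and 0.77 for the synthetases. The cytosolic ribosomal protein median was higher than that of the synthetases in 6 h replicate 1 and lower in 6 h replicate 3. These differences between groups were not tested, and the background of 20.0% called higher applies to all of them.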

How the data were processed

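RNA-seq was done on 6 libraries, 3 cultures at 0 h and 3 at 6 h of 200 mM NaCl. Per the labels each value is the FPKM of a gene in 1 library, deposited by the authors. The study's methods name TopHat and Cufflinks and the submitters' processing notes name HISAT, Bowtie2 and RSEM, so which of them made these FPKM is not settled. Genome build and strand setting are not given in these sources, the read number that the study lists per library was not used here, and only genes above 0 are listed, so an unlisted gene was set to 0. Precision was judged from the 3 cultures per time, which the series description calls biological replicates.

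The ribosomal protein genes and the other lists came from the study's gene table, and the compartments from its annotation text. Members and lists were chosen with earlier results of these data known. FPKM were divided by median-of-ratios factors, and log2(scaled FPKM + 0.1) was fitted in limma 3.58.1 (R 4.3.3), with trend and two-sided tests, for genes whose mean FPKM reached 1 at 0 h or at 6 h. Adding 0.1 understates the change of genes of very low level. Calls needed an adjusted p (Benjamini-Hochberg) under 0.05 and a change of 1 or more on the log2 scale. SDs are of log2 levels or of shares. Named genes are, in each compartment, the 3 largest and 3 smallest fold changes and the 2 highest levels at 0 h, with all called cytosolic genes, the pairs of neighbouring identifiers and the methyltransferase, and others are marked in the text. The alternatives were other scalings, pseudocounts and filters, a replicate block, no trend, library weights, the size limit inside the test or dropped, and leaving out each library.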

Additional observations from a re-analysis of the deposited data

How the results depend on the processing

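The direction of the median of all 117 ribosomal protein genes, and of the cytosolic, mitochondrial, plastid and unspecified groups, was kept under every alternative, while counts of calls moved widely, and the cause was not tested. Without scaling, with TPM and with upper-quartile scaling, genes called higher numbered 8, 7 and 9 (main 21) and called lower 4, 6 and 4 (main 2), and with library weights 35 were called higher. With the limit inside the test 4 were called higher and 1 lower, and with no size limit 37 and 8. Leaving out 1 library gave 11 to 59 called higher and 1 to 2 lower.

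For the cytosolic genes (main 11 higher) the counts were 1, 1 and 2 with the other scalings, 22 with library weights, 1 with the limit inside the test, 18 with no size limit and 3 to 40 without 1 library. For the plastid genes TPM gave 3 called lower (main 1) and a median of -0.66, and no size limit gave 1 higher and 4 lower. For the mitochondrial genes (main 5 higher) TPM gave 3, the limit inside the test 2 and no size limit 8. For the bacterial-type genes (main 3 higher, 1 lower) the other scalings gave 3 lower each, the limit inside the test 1 higher and 0 lower, no size limit 6 and 3, and leaving out 1 library 0 to 1 lower. For the unspecified genes (main 2 higher) the other scalings gave 1 each, library weights 4, the limit inside the test 0, no size limit 4 higher and 1 lower, and leaving out 1 library 1 to 9 higher. The bacterial-type median (main 0.05) was -0.26, -0.39 and -0.26 with no scaling, TPM and upper-quartile scaling, and -0.17 to 0.27 without 1 library.

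With the replicate block, 15 genes were called higher and 2 lower, with 6 cytosolic and 1 unspecified gene called higher. Same-numbered deviations from the mean of their time correlated at -0.30, -0.11 and -0.49, and each 0 h culture correlated best with a 6 h culture of another number. Taking out the mean ties the deviations within a time to each other, so they cannot tell whether a number stands for the same culture.

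Some named genes, none of them passing the test, turned in sign. With no scaling, TPM and upper-quartile scaling Cz02g19040 was at -0.20, -0.33 and -0.20, Cz06g21190 at -0.063, -0.19 and -0.064, Cz08g09200 at -0.24, -0.37 and -0.24, Cz10g19180 at -0.30, -0.43 and -0.30, and Cz10g26020 at -0.053, -0.19 and -0.054. Cz11g03220 was at -0.034 with TPM. Leaving out 1 library gave -0.14 to 0.41 for Cz02g19040, -0.37 to 0.079 for Cz02g33160, -0.42 to 0.060 for Cz04g11060, -0.015 to 0.54 for Cz06g21190, -0.24 to 0.059 for Cz06g21200, -0.12 to 0.24 for Cz08g09200, -0.24 to 0.29 for Cz10g19180 and -0.0026 to 0.81 for Cz11g03220.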
